A study of Mus musculus with 2 samples.

Results

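Peaks of the GFP chromatin immunoprecipitation in gene deserts are described here, that is, peaks of library 1 on chromosomes 1 to 19 whose summit lay at least 500 kb from the nearest protein-coding gene body. The rule selected 13462 of 584724 library 1 peaks, or 2.33% of the 576675 peaks on the 19 autosomes. They lay in 248 deserts that together span 201 Mb, 8.38% of the 2403 Mb that separate the outermost peaks of the autosomes. The series concerns functions of the core histone H3.2 in the eye. Its 2 libraries, called library 1 and library 2, were made with an anti-GFP antibody from heads of E10.5 mouse embryos that had been snap-frozen. Genotype, strain, sex, litter and the protein that carried GFP are not given in the labels, which are the same for both libraries, and no control library is named. All values below come from library 1 unless library 2 is named, so there is no replicate error, and the comparison is between deserts and the rest of the same chromosome within 1 peak list. Intervals are 95% exact intervals that cover counting error only, and peaks that lie close together are not independent.

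Gene deserts are long stretches of chromosome without protein-coding genes. Many are rich in A and T, replicate late and lie against the nuclear lamina, and some that adjoin regulators of development hold enhancers that act over long distances. H3.2 is made in S phase and is placed on chromatin behind the replication fork, in genes and between them, whereas H3.3 is placed outside replication. ChIP-seq reports where fragments recovered with an antibody pile up above a local background, and a peak caller returns each such place with a summit and a fold enrichment over that background.

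The bases of some desert peaks can be read from RefSeq windows (GRCm38.p6) that run from 250 bases before to 50 bases after the annotated start of a long non-coding RNA (lncRNA). A desert peak touched 34 of 230 such windows in deserts. Among the windows that could be shown, 5 held the whole peak. The pair with the highest fold is printed because it shows bases inside peaks, with the peak in capitals. The Gm46220 window at chr10:38059091-38059390, plus strand, holds a peak with a fold of 5.39 and a summit pileup, the number of extended reads over the summit, of 19 (11.4 to 29.7), in the desert between Marcks, which encodes a protein kinase C substrate, and Rfpl4b. The 1190028D05Rik window at chr8:52356361-52356660, plus strand, holds a peak with a fold of 4.85 and 17 reads (9.90 to 27.2), in the desert between Tenm3, a teneurin of neuronal wiring, and Aga, a lysosomal enzyme. The windows have GC contents of 53% and 53.3%, with 6 CG dinucleotides each.
Gm46220: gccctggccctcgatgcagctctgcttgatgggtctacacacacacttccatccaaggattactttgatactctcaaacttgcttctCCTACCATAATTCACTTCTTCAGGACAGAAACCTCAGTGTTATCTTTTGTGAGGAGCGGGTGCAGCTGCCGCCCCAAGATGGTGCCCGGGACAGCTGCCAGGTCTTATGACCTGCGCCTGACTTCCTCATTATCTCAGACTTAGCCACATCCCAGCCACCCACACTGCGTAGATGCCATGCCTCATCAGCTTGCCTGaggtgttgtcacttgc
1190028D05Rik: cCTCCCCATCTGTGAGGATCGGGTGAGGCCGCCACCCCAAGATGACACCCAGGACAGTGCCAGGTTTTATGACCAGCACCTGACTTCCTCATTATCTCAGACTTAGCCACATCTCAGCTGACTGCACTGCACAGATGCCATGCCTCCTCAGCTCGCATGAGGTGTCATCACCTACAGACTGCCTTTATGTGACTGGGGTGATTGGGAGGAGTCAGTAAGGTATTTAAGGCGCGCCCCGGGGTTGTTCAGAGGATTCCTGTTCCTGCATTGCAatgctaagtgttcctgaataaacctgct

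A pair of desert windows without a peak is printed for contrast, those whose GC content was nearest to the median of such windows. They are the 4933402J10Rik window at chr5:59985953-59986252, minus strand, and the Gm13794 window at chr2:95393992-95394291, plus strand. Both have a GC content of 41.3%, with 1 CG dinucleotide in 4933402J10Rik and 0 in Gm13794. The nearest desert peak lay 6.36 kb from the 4933402J10Rik window and 3.25 kb from the Gm13794 window.
4933402J10Rik: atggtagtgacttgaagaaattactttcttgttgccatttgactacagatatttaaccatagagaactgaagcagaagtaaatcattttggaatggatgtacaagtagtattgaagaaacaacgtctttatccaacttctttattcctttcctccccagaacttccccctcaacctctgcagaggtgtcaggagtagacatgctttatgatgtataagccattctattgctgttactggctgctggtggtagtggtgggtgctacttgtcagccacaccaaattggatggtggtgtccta
Gm13794: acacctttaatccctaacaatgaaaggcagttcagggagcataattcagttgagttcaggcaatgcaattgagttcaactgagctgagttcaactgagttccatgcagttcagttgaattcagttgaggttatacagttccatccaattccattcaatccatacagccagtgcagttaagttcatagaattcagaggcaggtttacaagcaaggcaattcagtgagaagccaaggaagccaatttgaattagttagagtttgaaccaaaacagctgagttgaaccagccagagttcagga

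The peaks in the Gm46220 and 1190028D05Rik windows, on different chromosomes, share an unbroken run of 35 bases, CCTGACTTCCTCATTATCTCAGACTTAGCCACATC. Searched on both strands, this run was found in 3 of 32817 RefSeq promoter windows (0.00914%), of which 2 were these desert windows and 1 was an lncRNA window with a peak outside deserts. The run was found in the printed peaks, so the count includes the windows it came from. A wider search, chosen after these sequences were seen, asked whether a window holds any run of 24 bases that is also found in a promoter window on another chromosome. Such a run was present in 18 of 34 desert lncRNA windows with a peak (52.9%, 35.1 to 70.2) and in 26 of 196 desert windows without one (13.3%, 8.85 to 18.8). Outside deserts the order was the other way round, at 302 of 3647 windows with a peak (8.28%, 7.41 to 9.22) and 999 of 7433 windows without one (13.4%, 12.7 to 14.2). The intervals of the 2 desert classes did not overlap, but the 18 include the 2 printed windows that prompted the search. Windows that share a run are also not independent of each other, which the intervals do not cover. With or without a peak, 44 of 230 desert windows held such a run (19.1%, 14.3 to 24.8), against 11.7% in the rest (11.1 to 12.4). Among windows of at least 50% GC, it was 18 of 33 in deserts (54.5%, 36.4 to 71.9), against 7.77% in the rest (7.03 to 8.56). These 18 also include the 2 printed windows. Most of the 33 had a peak (20 of 28 at 50 to 55% GC and 4 of 5 at 55% or more), so this is not separate support. Repeats were not annotated here, so the runs are given no name.

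Peaks were sparse in deserts. The deserts held 66.8 peaks per Mb (65.7 to 68.0), against 256 per Mb (255 to 257) in the rest of the 19 autosomes. With each desert set against the rest of its own chromosome, 50018 peaks would have been counted at the density of the rest, and the ratio of observed to that number was 0.269 (0.265 to 0.274). Peaks covered 1.69% of desert bases, against 6.60% of the rest. Density was lower in deserts on 19 of 19 autosomes, and on all 19 the upper bound in deserts lay below the lower bound in the rest. By single stretches, a ratio under 1 was found in 243 of 248 deserts, against 58.1% of 500-kb windows outside deserts.

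**Figure D1:**
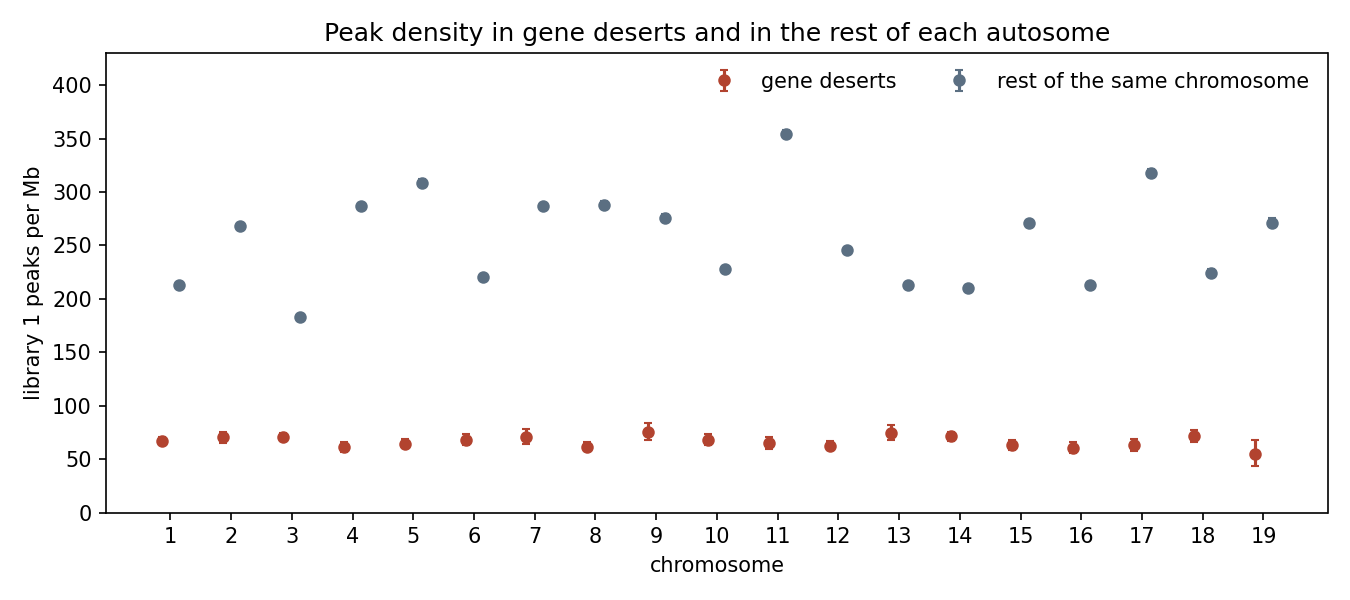
Library 1 peaks per Mb (vertical axis) in gene deserts and in the rest of the same chromosome, for the 19 autosomes (horizontal axis). Points are densities and bars are 95% exact Poisson intervals; desert densities stay between 54.9 and 75.3 per Mb, while those of the rest run between 183 and 355 per Mb.

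Desert density varied little from chromosome to chromosome. It was lowest on chromosome 19, with 83 peaks in 5 deserts and 54.9 peaks per Mb (43.8 to 68.1), and highest on chromosome 9, with 358 peaks in 9 deserts and 75.3 per Mb (67.7 to 83.5). Those chromosomes held 271 and 276 peaks per Mb outside deserts. The coefficient of variation over the 19 autosomes was 8.05% in deserts, against 17.52% in the rest. Chromosome 11, the densest outside deserts at 355 per Mb, held 64.9 per Mb in its deserts (59.3 to 70.9), a ratio of 0.183. Chromosome 3, the least dense outside deserts at 183 per Mb, held 70.8 per Mb in its deserts (67.1 to 74.7), a ratio of 0.387. Over the 19 autosomes the densities in deserts and in the rest had a Pearson r of -0.36 and a Spearman rho of -0.38, given as a description of chromosomes that share 1 library.

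The decline in density began well outside the 500-kb limit. Over all autosomes, density was 320 peaks per Mb inside protein-coding genes, 287 within 10 kb of one, 252 at 10 to 50 kb and 196 at 50 to 100 kb. It was 148 per Mb at 100 to 250 kb and 100.06 at 250 to 500 kb. Within deserts it was 71.7 per Mb (70.0 to 73.5) at 500 to 750 kb and 64.0 (61.7 to 66.3) at 750 kb to 1 Mb. Farther out it was 62.5 (60.3 to 64.7) at 1 to 1.5 Mb and 61.5 (57.9 to 65.4) beyond 1.5 Mb, so the intervals of the last 3 classes overlapped. The farthest desert peak lay 2254 kb from a gene, between Celf4, an RNA-binding regulator of splicing, and Pik3c3, a lipid kinase of autophagy.

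The same decline was seen within the gaps that hold the deserts. In 246 gaps with a gene on both sides, the first 10 kb from a gene held 143 peaks per Mb (133 to 154), the stretch at 100 to 200 kb held 101.5 (98.7 to 104) and that at 400 to 500 kb held 78.0 (75.5 to 80.5). Desert cores had 0.701 (0.690 to 0.713) of the density of the outer 500 kb of their own gaps, which was 95.6 per Mb (94.4 to 96.8). The core was less dense than its own outer part in 186 of 248 deserts. The ends of a desert gap were therefore already sparse beside the autosomes as a whole.

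**Figure D2:**
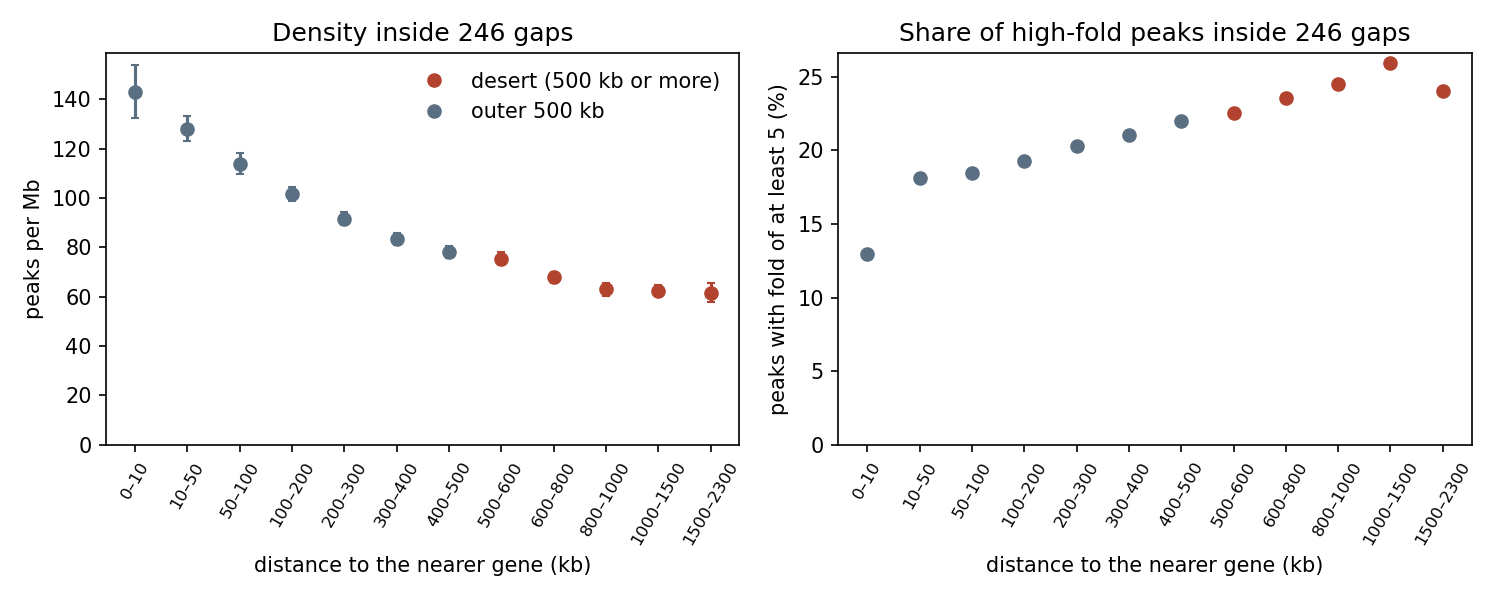
Peak density (left, peaks per Mb with 95% exact Poisson intervals) and the share of peaks with a fold of at least 5 (right, percent) by distance to the nearer gene in kb, over 246 gaps. Density is 143 per Mb within 10 kb of a gene and 61.5 beyond 1500 kb, whereas the share of high-fold peaks is 12.9% within 10 kb and 24% beyond 1500 kb.

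The peaks nearest to the limit are given for reference. Just inside, a peak in the desert between Jag1, a Notch ligand, and Btbd3 lay 500.003 kb from Btbd3 with a fold of 5.39. The next 2 lay 500.011 kb from Adgrl2, a latrophilin, with a fold of 6.46, and 500.022 kb from Rnf144b, a ubiquitin ligase, with a fold of 4.31. Just outside, the 3 nearest lay 499.975 kb from Atp11b with a fold of 3.23, 499.941 kb from Gm52257 with 5.92 and 499.873 kb from Ipo11 with 4.58.

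The 248 deserts were much alike in density, with a few exceptions. Desert length had a median of 496 kb (quartiles 196 and 1137 kb, range 6.28 to 3542 kb), and a desert held a median of 35 peaks (range 0 to 220). Density had a median of 66.0 peaks per Mb with quartiles of 56.0 and 79.8. Outside deserts, 408 of 4148 windows of 500 kb (9.84%) were at or under that median. The count interval lay below the density of the rest of the chromosome in 228 of 248 deserts (91.9%), against 50% of the windows outside deserts. It lay above in 1 desert, against 35.1% of the windows. A density under 0.5 of the rest was found in 229 deserts (31.5% of the windows). All 72 deserts of at least 1 Mb were called lower, with densities of 38.9 to 97.9 per Mb. Counts nonetheless scattered more than 1 common density allows, with a chi-square of 6.59 per degree of freedom.

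**Figure D3:**
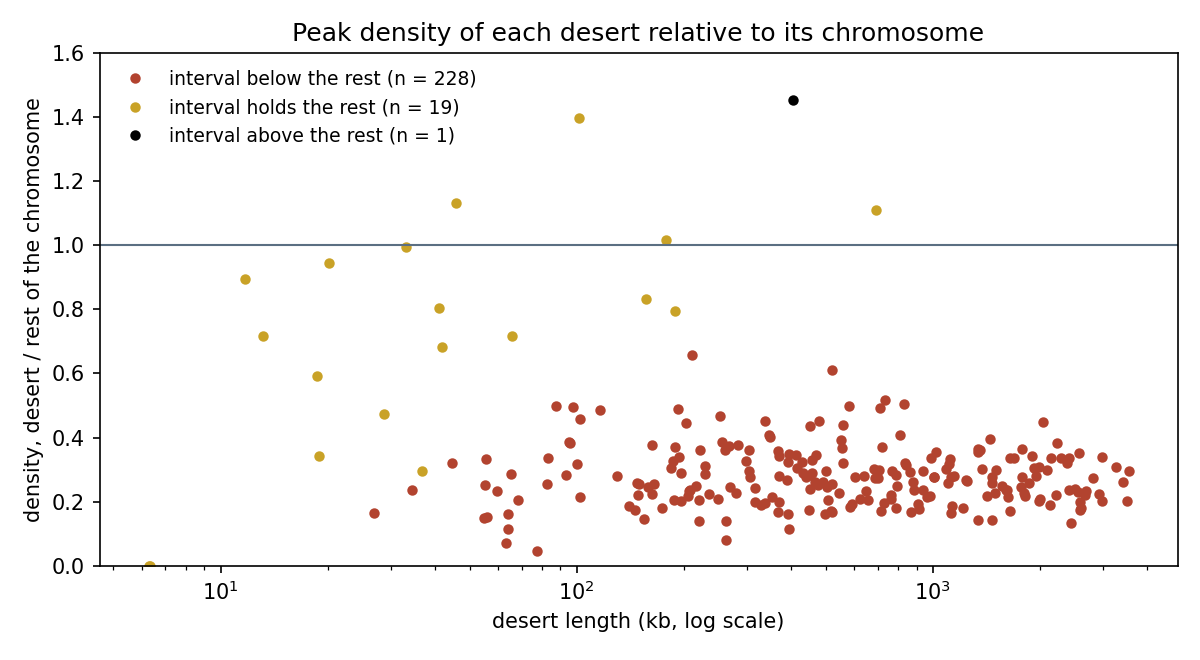
Density of each of 248 deserts divided by that of the rest of its chromosome (vertical axis) against desert length in kb (horizontal axis, log scale), with 1 point per desert and a line at equal density. Colours give the 95% count interval, which lay below the rest in 228 deserts, held it in 19 and lay above it in 1.

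Of the 10 deserts with most peaks, the 9 given here were 2381 to 3542 kb long. The desert between the protocadherin genes Pcdh20 and Pcdh9 on chromosome 14, 88971396 to 92513700, held 220 peaks, or 62.1 per Mb (54.2 to 70.9), against 210.1 per Mb in the rest of the chromosome. The desert between Cntnap5b, a contactin-associated protein, and the cadherin gene Cdh20 held 214 peaks at 65.3 per Mb (56.8 to 74.6), and that between Slc39a10, a zinc transporter, and Tmeff2 held 214 at 71.9 (62.6 to 82.2). Chromosome 1 held 213 per Mb outside deserts. A further 6 of the 10 deserts with most peaks held 173 to 187 each, with densities of 54.7 to 72.6 per Mb. They lay between Olfm4 and Pcdh17, Pcdh7 and G6pd2, Lrrc4c (a netrin-G ligand) and Iftap, Tenm3 and Aga, Slc10a2 (the ileal bile acid transporter) and Efnb2 (an ephrin), and Hace1 and Grik2 (a kainate receptor subunit).

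**Figure D4:**
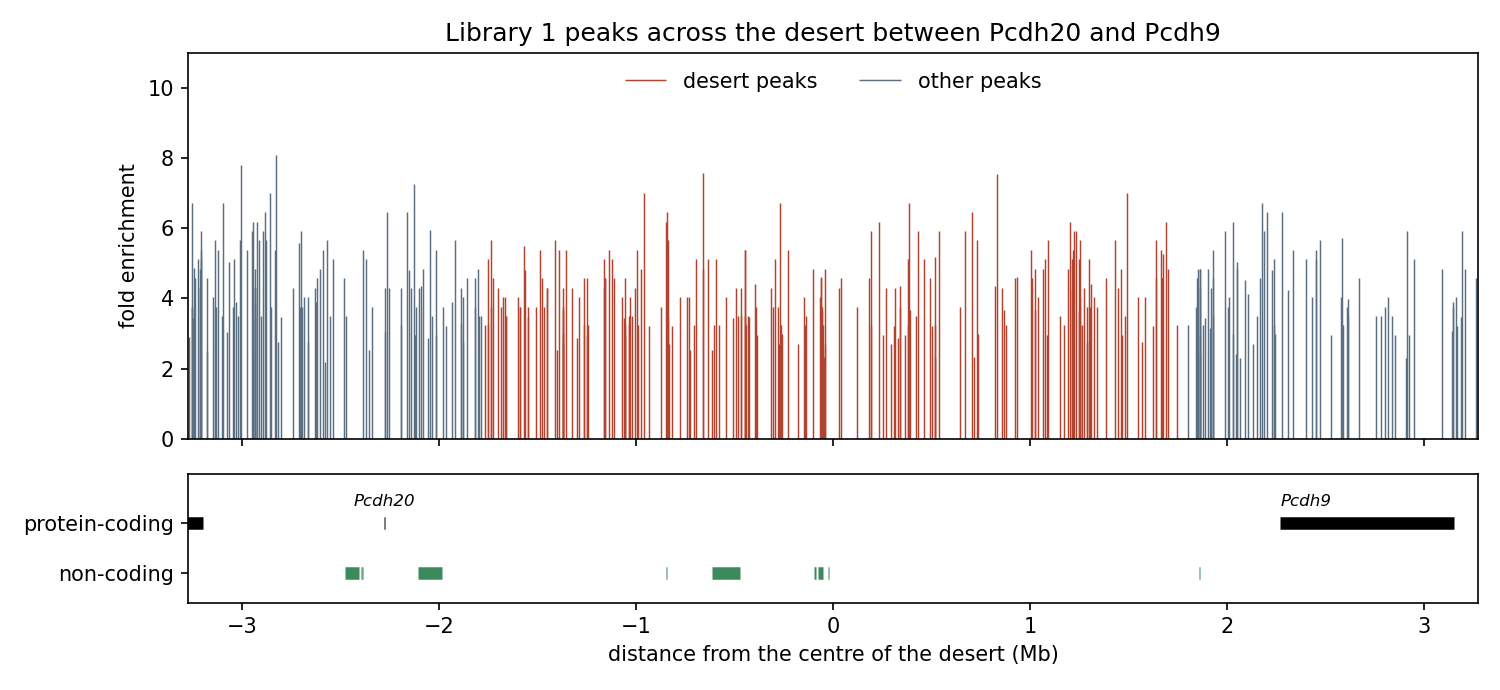
Fold enrichment of each library 1 peak (upper panel) and annotated genes (lower panel) by distance in Mb from the centre of the desert between Pcdh20 and Pcdh9. The 220 desert peaks stand between the 32 and 38 peaks of the outer 500 kb on either side.

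Few deserts of at least 100 kb were as dense as their chromosome. The desert between Sall3, a zinc finger regulator of neural and limb development, and Galr1, a galanin receptor, on chromosome 18, 81487021 to 81892496, held 132 peaks in 405 kb. Its density was 326 per Mb (272 to 386), against 224 per Mb in the rest, a ratio of 1.45 (1.21 to 1.72), and its outer 500 kb were as dense at 325 per Mb. The desert between Sox2, a regulator of eye and neural progenitors, and Atp11b, a phospholipid flippase, on chromosome 3, 35152461 to 35254044, held 26 peaks in 102 kb. That is 256 per Mb (167 to 375), against 183 per Mb in the rest, which lay within the interval. Ratios of 1.11, 1.02 and 0.833 followed between Gm36448 and Dad1, between Mki67 (a proliferation marker) and Mgmt (a DNA repair enzyme), and between Dok5 and Cbln4 (a synaptic organiser). The desert beside Dad1 holds 72 annotated antigen receptor segments.

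The sparsest deserts of at least 100 kb lay on 5 different chromosomes. Between Brinp1 and Cdk5rap2, a centrosome protein, 6 peaks in 262 kb gave 22.9 per Mb (8.39 to 49.8), 0.0797 of the density of the rest of chromosome 4. Between Adgra3 and Ppargc1a, a coactivator of mitochondrial genes, 14 peaks gave 35.4 per Mb (19.4 to 59.4) and a ratio of 0.115. Between Tenm2, a teneurin, and Mat2b, 114 peaks in 2442 kb gave 46.7 per Mb (38.5 to 56.1) and a ratio of 0.132. Ratios of 0.140 and 0.141 were found between Ccer1 and Atp2b1, a plasma membrane calcium pump, and between Rorb, a nuclear receptor of retina and cortex, and Anxa1. Each of these 5, chosen for a low density, lay below the density of its own outer 500 kb, at 0.266 to 0.706 of it. The same order was found in 163 of all 213 deserts of at least 100 kb.

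Desert peaks had a slightly higher median fold than peaks in the rest and more often reached a fold of at least 5. Fold enrichment is the authors' value for the summit. The median fold was 4.04 in deserts (quartiles 3.50 and 4.85), against 3.90 in the rest (3.27 and 4.58), a difference of 0.138. Against the outer 500 kb of the same gaps, where the median was also 4.04, the difference was 0, as it was among peaks with a −log10 q of at least 5. With the genome-wide background of 2.71 extended reads, 1 read changes the fold by 0.269, and the median summit pileup was 15 reads in both. The median difference was above 0 on 18 autosomes and 0 on chromosome 3. A fold of at least 5 was reached by 3238 desert peaks (24.1%, 23.3 to 24.8), against 15.7% of peaks in the rest, and the desert share was the higher one on 19 of 19 autosomes. A −log10 q, the authors' significance value after correction for multiple peaks, of at least 5 was reached by 50.3% of desert peaks (49.4 to 51.1), against 40.8% in the rest. The top 10% of autosomal peaks by fold took in 17.6% of desert peaks (17.0 to 18.3), against 10.6% of the rest.

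Peaks of high fold were accordingly less depleted in deserts than weaker ones. The density ratio of deserts to the rest was 0.282 (0.277 to 0.288) for peaks with a fold of at least 3 and 0.319 (0.312 to 0.326) at 4. It was 0.410 (0.396 to 0.425) at 5, 0.543 (0.509 to 0.579) at 6 and 0.665 (0.589 to 0.747) at 7, where 281 desert peaks were left. At 8 it was 0.695 (0.499 to 0.943) with 41 desert peaks, density being lower in deserts on 13 of 19 autosomes. Above that the counts were too few to place the ratio. A fold of at least 9 was reached by 3 desert peaks, against 96 in the rest, a ratio of 0.346 (0.0714 to 1.01), and a fold of at least 10 by 0 desert peaks, against 23 in the rest (ratio 0 to 1.97). By summit pileup the ratio was 0.431 (0.414 to 0.449) at 20 reads or more, 0.591 (0.537 to 0.649) at 25 and 0.458 (0.345 to 0.596) at 30. At 40 reads or more it fell to 0.167 (0.0542 to 0.390), with 5 desert peaks against 315 in the rest. The rise of the ratio with pileup therefore did not hold at the highest pileups.

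The background used by the peak caller also differed. In deserts 74.1% of peaks (73.4 to 74.9) were called against the genome-wide background, against 65.7% (65.6 to 65.9) in the rest, and a higher local background lowers the fold. Among peaks called at the genome-wide background, where fold depends on pileup alone, 28.5% in deserts and 20.1% in the rest had a fold of at least 5, and the mean pileup was 15.6 reads in deserts and 14.8 in the rest. Within the gaps themselves, the share with a fold of at least 5 was 12.9% within 10 kb of a gene, 19.3% at 100 to 200 kb, 22.0% at 400 to 500 kb and 26.0% at 1 to 1.5 Mb.

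Width hardly differed. Desert peaks had a median width of 198 bp (quartiles 146 and 301), against 202 bp (148 and 307) in the rest. The median was smaller in deserts on 11 autosomes and larger on 8, with differences of -18.5 bp on chromosome 7 to 18 bp on chromosome 13. The sign turned where the deserts were compared only with intergenic bases, at 2 bp, and in the top 10% by fold, at 14 bp. Peaks of at least 300 bp had a density ratio of 0.262 (0.253 to 0.271), near the ratio for all peaks. A width of at least 1000 bp was reached by 107 desert peaks (0.795%), against 0.669% of the rest. The largest peak spanned 2375 bp among the 13462 in deserts, against 8736 bp among the 563213 in the rest. Among 168 deserts with at least 20 peaks, the median fold was above that of the rest of the chromosome in 141 and below it in 18, and the median width was above in 78 and below in 89.

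The 10 desert peaks with the highest fold had summit pileups of 32 to 34 reads. A fold of 9.43 and a pileup of 34 reads (23.5 to 47.5) were shared by 2 peaks on chromosome 14. One lay at 82179178 to 82179540, 2156 kb from Olfm4, an olfactomedin, and the other at 112633292 to 112633774, 951 kb from Slitrk5, a synaptic adhesion protein. The desert between Slitrk5 and Gpc5, a glypican, held 3 of the 10 desert peaks with the highest fold. A fold of at least 5 was reached by 41 of its 170 peaks, near the 24.1% of all desert peaks. The peak between Nudt12 and Efna5, an ephrin, on chromosome 17 had a fold of 9.16. The other 7 had folds of 8.69 to 8.89, or 32 reads each, and 9 of the 10 were called at the genome-wide background. Of the 10, 1 lay in an annotated non-coding gene, the T cell receptor alpha locus, against 12.1% of all desert peaks in such genes. Among autosomal peaks outside deserts the highest fold was 16.1.

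The widest desert peak had another character. It spanned 2375 bp at chromosome 3, 22729864 to 22732238, 514 kb from Tbl1xr1, a transcription corepressor subunit. Its summit held 66 reads (51.0 to 84.0), the most of any desert peak, over a local background of 7.55, which gave a fold of 7.83. The other 4 of the 5 widest spanned 1857 to 2281 bp with 20 to 24 reads at the genome-wide background. They lay between Lrfn5 and Fscb, between Tenm3 and Aga, between the cadherin genes Cdh10 and Cdh12, and between Ddx18 and Dpp10, a potassium channel partner.

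Desert peaks stood far apart, though not evenly. Neighbouring summits in a desert were a median of 9.33 kb apart (quartiles 2.91 and 20.6), against 1.62 kb (0.809 and 3.94) in the rest. A neighbour within 1 kb was present for 2799 desert peaks (20.8%), where 12.5% would have one if summits fell independently at the mean density of the deserts. In the rest these shares were 51.3% and 40.1%. The longest distance between neighbouring summits was 176 kb in deserts, against 396 kb in the rest.

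Within deserts, pseudogenes were dense in peaks and lncRNA genes were not. The 465 pseudogenes that touch deserts held 370 peaks in 1.96 Mb, or 189 per Mb (170 to 209), against 65.6 (64.5 to 66.8) in other desert bases. Pseudogenes in the rest of the autosomes held 330 per Mb. The desert between Cntnap5b and Cdh20 gave 58 of the 370 peaks, and also 678 kb of the 1.96 Mb. Without the 3 deserts that hold antigen receptor segments the density was 183 per Mb (164 to 203). The 298 lncRNA genes that touch deserts held 837 peaks (6.22% of desert peaks) at 61.7 per Mb (57.6 to 66.0), against 67.2 (66.0 to 68.4) in other desert bases and 280 per Mb for lncRNA genes in the rest. Antigen receptor segments in 3 deserts held 59 peaks in 0.135 Mb, or 436 per Mb (332 to 562), against 520 per Mb for those outside deserts. Since these segments are not annotated as protein-coding genes, their loci count as deserts under the rule. Reads from near-identical pseudogene or segment copies may map to more than 1 place, and how the authors treated them is not given in the sources used here.

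At lncRNA start windows, the share touched by a peak moved with GC content. Desert windows had a median GC content of 42.3% (quartiles 38.1 and 47.0), against 48.7% (43.7 and 53.7) in the rest. A peak touched 34 of 230 desert windows (14.8%, 10.46 to 20.04), against 3647 of 11080 in the rest (32.9%, 32.0 to 33.8). The GC content of desert windows had a median of 52% with a peak and 41.3% without one, as in the printed examples, where the windows with a peak have 53% and 53.3%. Under 35% GC 0 of 29 desert windows had a peak, which allows a share of up to 11.9%, against 5 of 397 (1.26%) in the rest. At 35 to 40% GC it was 0 of 51, which allows up to 6.98%, against 33 of 914 (3.61%) in the rest. Both shares of the rest lay within the desert intervals. At 45 to 50% GC the share was 15.7% in deserts (7.02 to 28.6), against 21.5% in the rest (19.98 to 23.0). At 50 to 55% it was 71.4% (51.3 to 86.8), against 53.6% (51.5 to 55.6).

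**Figure D5:**
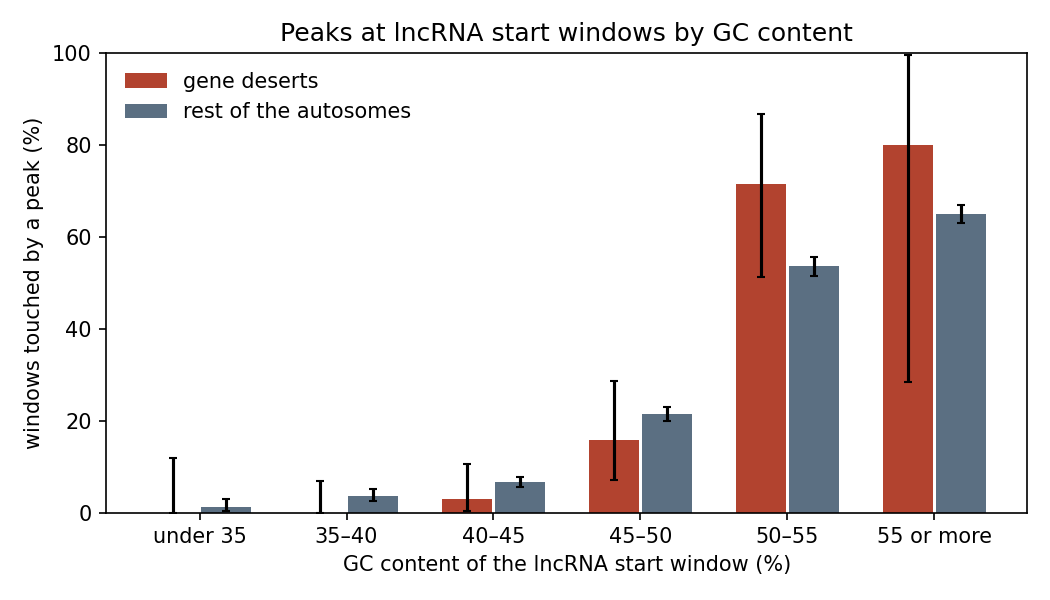
Share of lncRNA start windows touched by a library 1 peak (vertical axis, percent) by GC content of the 300-base window (horizontal axis, percent), in gene deserts and in the rest of the autosomes. Bars are shares with 95% exact binomial intervals. In deserts the share is 0% in both classes under 40% GC, against 1.26% and 3.61% in the rest. At 50 to 55% GC it is 71.4%, against 53.6% in the rest.

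When the shares of the rest were weighted to the GC make-up of desert windows over 6 GC classes, they gave 15.6%, against 14.8% measured in deserts. Desert shares weighted to the GC make-up of the rest gave 37.5%, against 32.9% measured in the rest. The 37.5% leans on the class of at least 55% GC, which holds 22.3% of the windows of the rest but only 5 desert windows. A peak touched 4 of those 5 (80%, 28.4 to 99.5), so the 37.5% is loosely placed. GC content and peaks moved together with distance as well. Windows within protein-coding genes had a median GC content of 51.7% and a peak in 41.4% of cases, those at 100 to 250 kb had 45.7% and 22.6%, and those at 250 to 500 kb had 44.3% and 17.8%. These windows are annotated starts and not the whole desert, whose base composition was not analysed here, and whether the shortfall of peaks follows from GC content was not tested.

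Genes beside the deserts were counted against 2 lists. Of 86 developmental regulators, 22 (25.6%) flanked a desert, against 2.21% of all 20665 protein-coding genes. The 22 deserts beside them had a median density of 69.0 peaks per Mb, against 65.7 in the other 226. Pooled over their length, the 22 deserts held 78.1 per Mb, against 66.0 in the other 226. The Sall3 desert gave 132 of their 1024 peaks. Many of these regulators were listed because they are known to adjoin deserts, so the count is a description only. They included Zeb2, a repressor of epithelial genes, with 168 peaks at 62.3 per Mb (53.2 to 72.5), and Nr2f1, an orphan nuclear receptor of eye and cortex, with 120 at 71.2 (59.1 to 85.2). Pou3f2, a neural regulator, had 80 at 79.4 (62.9 to 98.8). All 3 lay below the rest of their chromosome, unlike the deserts beside Sall3 and Sox2. Of 339 genes of families known for neuronal adhesion and synapses, 57 (16.8%) flanked a desert. They were taken by symbol and so include the endothelial cadherin gene Cdh5. The 66 deserts beside them held 5620 peaks at a median of 64.1 per Mb, against 67.5 in the other 182. Pooled over their length, these densities were 63.4 and 69.5 per Mb.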

How the data were processed

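The deposited data comprise 1 narrowPeak list for each of 2 libraries. Per the submitters' processing notes, MACS2 2.1.0, Bowtie 1.1.2, Trimmomatic 0.33 and bcl2fastq 2.17 were used, with hg38 and mm10 as builds and neither roles nor settings stated. Positions matched mm10. For each peak the deposited lists give a score (10 times −log10 q cut to a whole number in 100% of peaks), the fold enrichment as a ratio, a summit offset, and p-values and q-values as −log10. These are the authors' values and were used to describe and filter peaks within a list. Read totals are not given in the sources used here.

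Distances were taken from summits to 20665 autosomal protein-coding genes of a RefSeq table (GRCm38.p6). Lengths run between the first and last summit of a chromosome, and assembly gaps were not removed. The rest of a chromosome is all of that span outside deserts. Summit pileup and background were solved from fold and −log10 p-value (100% of autosomal peaks, tolerance 0.002). Intervals are exact Poisson or Clopper-Pearson intervals at 95%. No test across samples was possible with 1 library, and none was made. The calculation of the density ratio was checked on simulated lists of 248 deserts, where true ratios of 0.3 and 1 came out as 0.300 and 1.01. Simulated summits fell independently at a set density, whereas the real ones were clustered. The check therefore covers the calculation and not the width of the intervals. Python 3.11.15, NumPy 2.4.6, pandas 2.3.3, SciPy 1.17.1 and Matplotlib 3.10.9 were used.

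Members and lists were chosen with earlier results of these data known. Deserts were named by flanking genes. The rule named the 10 with most peaks, the 5 with the highest and the 5 with the lowest ratio among deserts of at least 100 kb, the 10 peaks with the highest fold, the 5 widest and the 3 on either side of the limit. Of the 10 deserts with most peaks, 1 is not reported here. The printed windows replaced an earlier choice, the 4 of highest fold that touch a desert peak, after their bases had been read. The counts by GC content, pseudogene, shared run and background were added after seeing the data, and genes of neuronal families were listed by the start of their symbols. The map, the developmental regulators given with values, the farthest peak and the chromosomes singled out were chosen after values were seen. Alternatives covered distance, gene set, peak threshold, peak position, comparison bases, chromosome ends, length and each chromosome left out. The comparison with the outer 500 kb of the same gaps and the addition of antigen receptor segments to the genes were chosen after seeing the data.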

Additional observations from a re-analysis of the deposited data

How the results depend on the processing

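The density ratio of deserts to the rest, 0.269, stayed below 1 under every alternative tried. It was 0.315 at a limit of 250 kb, 0.289 with genes of any biotype, 0.283 without genes of predicted names, 0.3302 with −log10 q of at least 5 and 0.442 in the top 10% by fold. It was 0.334 against intergenic bases only, 0.227 with lengths from the first base of a chromosome and 0.701 against the outer 500 kb of the same gaps. Peak middles gave 0.269, and counting antigen receptor segments as genes gave 0.266. Leaving out each chromosome gave 0.260 to 0.275. The median fold difference of 0.138 became 0.229 at 1 Mb, 0.269 in the top 10% and 0 with −log10 q of at least 5 or against the outer 500 kb. It was 0.138 without any single chromosome. The median width difference of -4 bp became -8 bp at 250 kb and 0 bp at 1 Mb, and turned to 3 bp with −log10 q of at least 5, 14 bp in the top 10%, 2 bp against intergenic bases and 7 bp against the outer 500 kb. Single chromosomes left out gave -5 to -3 bp. The deserts held 32651 peaks at 250 kb, 4086 at 1 Mb, 156 with genes of any biotype, 6765 with −log10 q of at least 5, 2373 in the top 10% and 12030 to 13379 without a chromosome. Deserts called lower numbered 480 of 591 at 250 kb, 68 of 72 at 1 Mb, 10 of 12 with genes of any biotype, 134 in the top 10% and 114 against the outer 500 kb, with 208 to 224 without a chromosome. Genes of any biotype left deserts on 9 chromosomes, all 9 less dense than their rest, and each chromosome left out gave 18 of 18. The cause of these shifts was not tested. Stricter limits also left fewer peaks or deserts, as given above. No paired analysis was possible because both libraries belong to 1 group, and no library could be left out because the rule uses library 1 alone. Bases without N were not counted, as no genome sequence was used here.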

Other observations

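Library 2 held 8 of its 118 autosomal peaks in the same deserts (6.78%, 2.97 to 12.9), where deserts make up 8.38% of the span. Each lay in a different desert, with a median fold of 10.51, against 8.72 for the other autosomal peaks of library 2. The strongest, with a fold of 28.8, lay on chromosome 4 at 28176930 to 28177003, between Manea and Epha7, an ephrin receptor. Of the 8, 1 touched a desert peak of library 1. It lay between Lratd1 and Trib2 on chromosome 12, with a fold of 4.88 in library 2. The 8 peaks were narrow, with a median width of 57.5 bp, against 198 bp for desert peaks of library 1. The share of library 2 peaks outside deserts that touch a library 1 peak is not given here. The 1 of 8 therefore has no reference to be read against.

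None of the 19 miRNA hairpins centred in deserts, of those with a sequence in the RefSeq table, was touched by a library 1 peak. The 21 annotated miRNA genes that touch deserts span 0.00177 Mb in all, where a count of 0 allows up to 2081 peaks per Mb, far above the 66.8 per Mb of deserts. The nearest desert summit lay 0.135 kb from the centre of Mir3961 and 0.261 kb from that of Mir7094-2, whereas for Mir135a-2 it was 31.5 kb away. The 8 Mir344 family hairpins, all in a desert of chromosome 7 between positions 61683124 and 61837402, had their nearest summit 4.25 to 17.99 kb away.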
